A study of Mus musculus with 6 samples.

Results

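The genes described here are 10 of the output side of the integrated stress response: the transcription factors Atf4 and Ddit3, the pseudokinase Trib3, the asparagine-making enzyme Asns, and the amino acid transporter genes Slc7a11, Slc7a5, Slc3a2, Slc7a1, Slc1a5 and Slc38a2. They were found by name, ignoring case, among the row names and platform symbols of the deposited gene-level table, and each matched 1 row, so they are 10 of 31492 rows. The tissue was gastrointestinal stromal tumour (GIST), a sarcoma that resembles the gut's pacemaker cells, the interstitial cells of Cajal, and that usually depends on an activated KIT receptor. All mice, controls included, carried the allele written Kit V558Δ/+ in the labels, with C57Bl/6 as the strain and an age of 6 weeks. One group of 3 tumours came from mice injected into the peritoneum with vehicle and the other group of 3 from mice injected with imatinib, an inhibitor of KIT, ABL and the PDGF receptors. The labels give neither the dose nor the length of treatment. The tumours carry separate numbers, but nothing in the labels ties each to an animal of its own, so the p-values cover only the spread among these 6 samples, which may be technical. RNA of each tumour was hybridised to 1 Illumina beadchip array.

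In the integrated stress response, kinases that sense amino acid shortage, misfolded protein, haem shortage or double-stranded RNA phosphorylate the translation factor eIF2. This lowers protein synthesis as a whole while it raises translation of the Atf4 message, so ATF4 protein can change without a change of its transcript. ATF4 binds composite C/EBP-ATF sites and induces genes that import and make amino acids, among them most of the genes described here. Growth factor and mTORC1 signalling also raise ATF4 output in dividing cells. Tumour cells rely on several of these transporters for leucine, cystine, arginine and glutamine.

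Between 45.7% and 47.3% of the probes were detected on each array. On the first principal component, with 60.8% of the variance over the 14713 genes tested, vehicle 1 (-60.5) and imatinib 3 (47.3) lay at opposite ends and vehicle 2 (0.983) lay near imatinib 2 (10.1). Of the tumour markers Kit, Etv1, Prkcq, Gpc6 and Hand1, all but Hand1 were detected on all 6 arrays, and Hand1 was missing on 1 vehicle array. Ano1, also a marker of these tumours, had no row of that name. Kit, which encodes the receptor that imatinib inhibits, had a log2 change of -0.30 ± 0.26 (SE, limma adjusted p = 0.485). The sum of the linear signals of these 5 markers was 26280 to 32950 with vehicle and 18770 to 33960 with imatinib, so the groups overlapped, with the lowest sum on imatinib 3. Of the 5 markers 4 had a lower mean with imatinib, with a median log2 change of -0.30, and none passed. Gpc6 (-1.32 ± 0.25 SE, limma adjusted p = 0.0556) and Prkcq (-0.78 ± 0.23 SE, limma adjusted p = 0.109) were lower on all 3 imatinib arrays than on any vehicle array, and their part in the results was not tested.

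With imatinib, Trib3 and Slc7a5 had lower normalized signals on all 3 arrays than on any vehicle array, by 2.14-fold and 1.76-fold. Slc38a2 had higher normalized signals on all 3, by 1.35-fold, but before normalization the groups of its tested probe overlapped. Atf4 itself, Ddit3, Asns, Slc3a2 and Slc7a11 had overlapping groups, and Slc7a1 and Slc1a5 were detected on no array. None of these differences passed an adjusted p of 0.05 by limma, adjusted after Benjamini-Hochberg over all 14713 genes. Slc7a5 lay closest to it (adjusted p = 0.053), followed by Trib3 (adjusted p = 0.0583). Over all genes 1.58% passed, and the smallest adjusted p of any gene was 0.0339. At an unadjusted limma p of 0.05 the count was 2 of 8 genes tested, Slc7a5 and Trib3, against 26.4% of all genes. Groups that did not overlap were found for 3 of 8, a share of 37.5% beside 31.9% of all genes, so it lay close to the background. Of these, 2 were lower with imatinib, where 14.5% of all genes were, and 1 was higher, where 17.4% of all genes were. The mean was lower with imatinib in 6 of 8, beside 45.7% of all genes, and higher in 2 of 8, beside 54.3%, with a median log2 change of -0.10 against 0.04 over all genes. The genes described were chosen with earlier results of these data known, so these counts are not independent of the data. These tumours are bulk tissue, in which fewer cells of a type and less RNA per cell cannot be told apart.

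**Figure D1:**
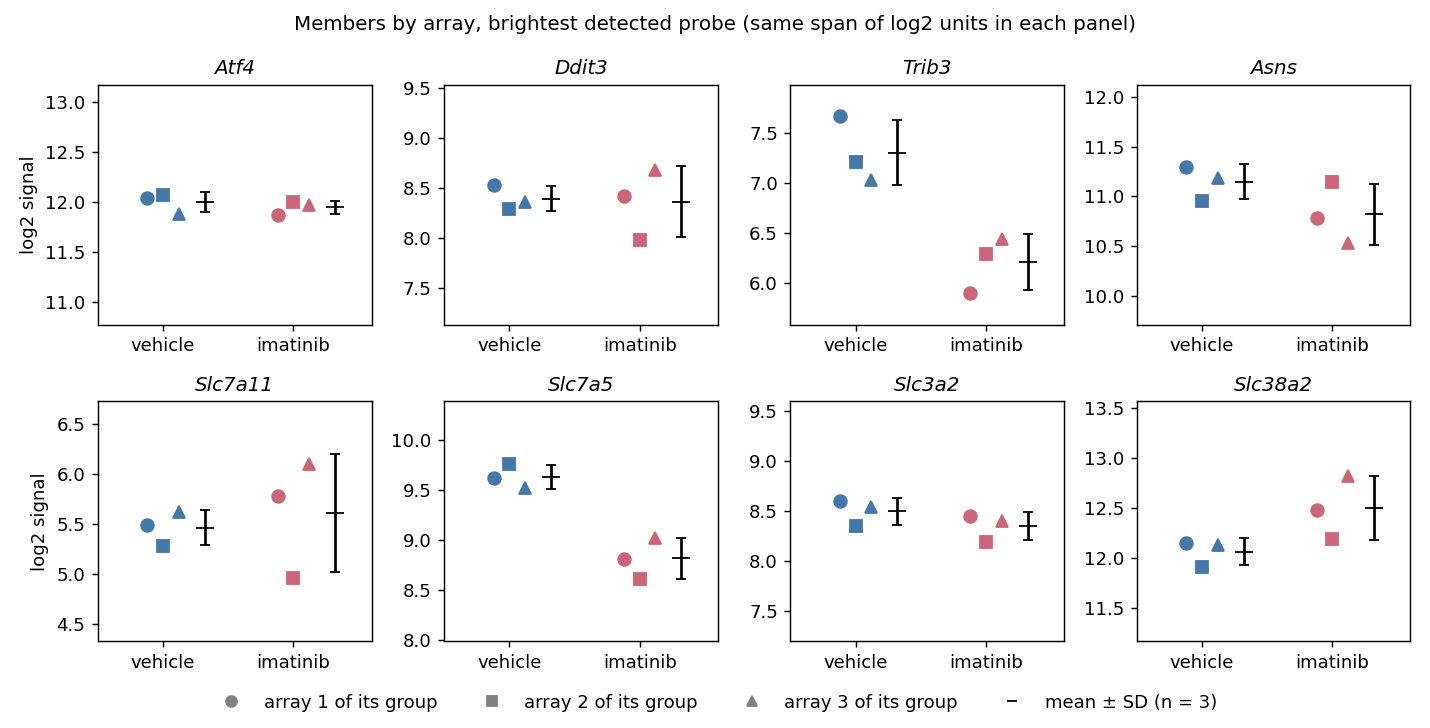
Log2 signal (vertical axis) of the 8 genes detected, by group (horizontal axis). Each symbol is 1 array, its shape marks the array's number within its group, the bar beside it is the mean ± SD of 3 arrays, and every panel spans the same number of log2 units. Trib3 and Slc7a5 lie lower on all 3 imatinib arrays and Slc38a2 higher, while the other 5 panels overlap.

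Atf4 encodes the transcription factor at the centre of the response. Its log2 signal on the probe tested was 12.05, 12.08 and 11.89 on vehicle 1 to 3 and 11.88, 12 and 11.97 on imatinib 1 to 3. The groups overlapped and the log2 change was -0.05 ± 0.11 (SE), with a 95% interval of -0.32 to 0.21 (limma adjusted p = 0.772). A second detected probe of Atf4 gave 10.07, 9.998 and 10.07 with vehicle and 9.20, 10.03 and 9.45 with imatinib. On that probe imatinib 1 and imatinib 3 lay below all vehicle arrays and imatinib 2 lay among them, with a log2 change of -0.48 ± 0.21. Its row was tied to RefSeq by symbol only, since the platform lists neither its gene ID nor a current accession. With the mean of both probes the change was -0.27 (adjusted p = 0.28).

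Ddit3 encodes CHOP, a C/EBP-family factor that ATF4 induces under lasting stress and that is linked to cell death. Its log2 signal was 8.53, 8.29 and 8.36 with vehicle and 8.42, 7.98 and 8.69 with imatinib. The imatinib arrays held both the highest and the lowest of the 6 values, and the log2 change was -0.03 ± 0.20 (SE, 95% interval -0.51 to 0.44, limma adjusted p = 0.932). The second probe of Ddit3 gave a change of -0.05 ± 0.15, also with overlapping groups. The sign of the change turned when vehicle 1 was left out (0.04) and when imatinib 2 was left out (0.16), so Ddit3 had no settled direction.

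Trib3 encodes a pseudokinase that is induced by ATF4 and CHOP and that holds back their activity. Its signal before normalization was 232, 175 and 162 on vehicle 1 to 3 and 79.9, 111 and 105 on imatinib 1 to 3. In normalized log2 units these were 7.67, 7.21 and 7.03 with vehicle and 5.90, 6.29 and 6.44 with imatinib. The groups did not overlap, and the highest value of all was on vehicle 1. The gene spans 152337425 to 152344060 of chromosome 2. The log2 change was -1.10 ± 0.22 (SE, n = 3 arrays a group), with a 95% interval for this gene alone of -1.62 to -0.57 (limma adjusted p = 0.0583). This difference was larger than the spread between arrays of a group (SD 0.33 with vehicle and 0.28 with imatinib) but did not pass the adjusted threshold. Of the 3 probes of Trib3, the one tested was detected on all 6 arrays and the others on 1 array each. In the rows that average all 3 probes the change was -0.61 in the deposited gene-level table (adjusted p = 0.0829) and -0.37 in the authors' processed values (adjusted p = 0.109). Trib3 was lower in all 18 alternatives, from -1.23 to -0.37, and passed in 2 of them, with array weights and without vehicle 2 (limma adjusted p = 0.0495). Those settings called 7589 of 14713 and 1360 of 14462 genes.

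The RefSeq window of Trib3, 250 bases before its annotated start to 50 after it, held 1 match to the core of the composite C/EBP-ATF site, searched as TGATGNAA on both strands, 14 bases after the start. The match lay on the reverse strand. The stretch around it, chr2:152344028-152344057 (GRCm38.p6, gene on the minus strand), is shown with the matching letters in capitals because Trib3 had the largest change among these genes.
Trib3: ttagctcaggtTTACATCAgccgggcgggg

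Asns encodes asparagine synthetase, which makes asparagine from aspartate and glutamine, and its amino acid response element is a textbook ATF4 site. Its log2 signal on the probe tested was 11.30, 10.95 and 11.19 with vehicle and 10.78, 11.14 and 10.54 with imatinib. Imatinib 1 and imatinib 3 lay below all vehicle arrays, while imatinib 2 lay above vehicle 2. The log2 change was -0.32 ± 0.19 (SE, 95% interval -0.77 to 0.12, limma adjusted p = 0.302). A second probe of Asns showed the same order of groups, with imatinib 2 among the vehicle arrays and a change of -0.42 ± 0.22.

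Another, dimmer probe of Asns had signals of 107, 104 and 135 before normalization with vehicle and 41.9, 87.3 and 48.6 with imatinib. It was detected on all 3 vehicle arrays and on imatinib 2 but not on imatinib 1 or imatinib 3. Its imatinib signals all lay below its vehicle signals. It passed the detection filter through the vehicle arrays, and no size is given for it because 2 of its 3 imatinib values were not above background. With the mean of the 3 probes, which includes this one, the change of Asns was -0.71 (adjusted p = 0.128). Without imatinib 3 the tested probe gave -0.18 and without imatinib 2 it gave -0.49. Asns passed in 1 of 18 alternatives, that with array weights, which called 7589 of all 14713 genes.

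The promoter window of Asns held 1 match to TGATGNAA, on the forward strand 23 bases before the start. The stretch around it, chr6:7693211-7693246 (GRCm38.p6, gene on the minus strand), is printed because Asns is the best-studied ATF4 target of the group.
Asns: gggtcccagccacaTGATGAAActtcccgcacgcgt

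**Figure D2:**
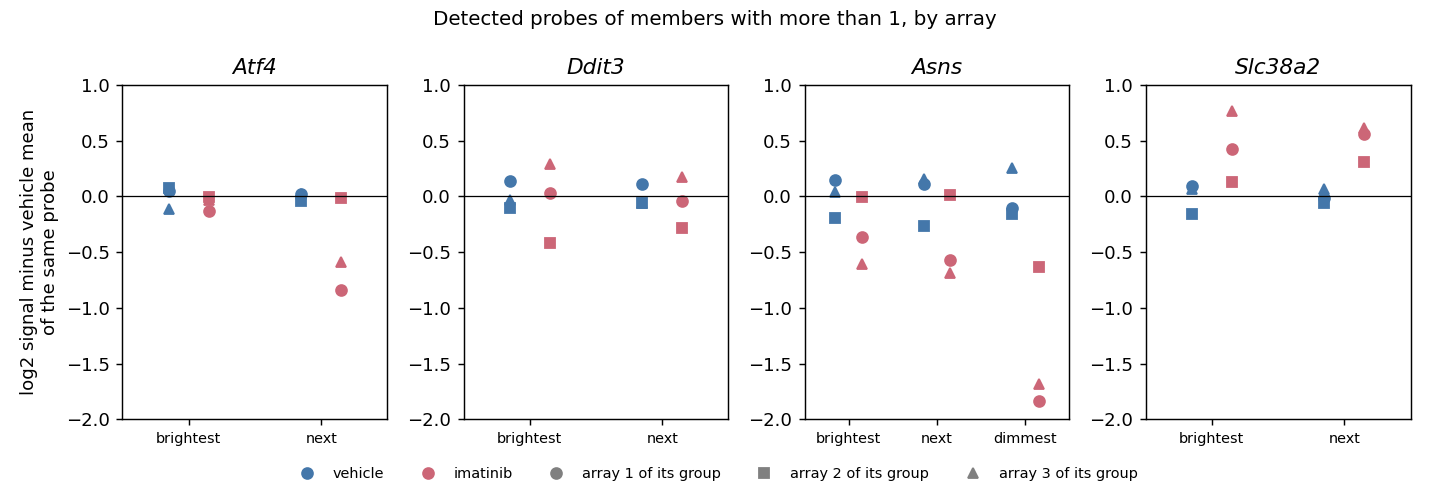
Log2 signal minus the vehicle mean of the same probe (vertical axis) for each detected probe (horizontal axis, ordered by brightness) of the 4 genes with more than 1. Colours mark the group and shapes the array number. The probes of Ddit3 and of Slc38a2 show like patterns, whereas for Atf4 and Asns the dimmer probes lie lower on imatinib 1 and imatinib 3 and imatinib 2 stays nearer to the vehicle arrays.

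Slc7a5 encodes LAT1, the light chain of the exchanger that brings leucine and other large neutral amino acids into dividing cells. Its signal before normalization was 870, 883 and 778 on vehicle 1 to 3 and 461, 449 and 488 on imatinib 1 to 3. The normalized log2 values were 9.62, 9.76 and 9.53 with vehicle and 8.82, 8.62 and 9.02 with imatinib. The groups lay clearly apart, and vehicle 2, which lay nearest to the imatinib arrays on the first principal component, had the highest value. The log2 change was -0.82 ± 0.14 (SE), with a 95% interval for this gene alone of -1.16 to -0.47 (limma adjusted p = 0.053). That difference exceeded the spread between arrays (SD 0.12 and 0.20), and the standard error over beads was at most 4.14% of the signal on any array. Slc7a5, at 121881146 to 121907686 of chromosome 8 (GRCm38.p6), had 1 probe, so no other probe checks it. The change lay between -0.92 and -0.70 in all 18 alternatives, and the adjusted p fell below 0.05 in 10 of them. Among the alternatives that left out arrays it did so only without vehicle 2 (limma adjusted p = 0.047), where 1360 of 14462 genes passed. The 10 also include the fit with array weights, in which 7589 of 14713 genes passed.

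Slc3a2 encodes CD98, the heavy chain that carries both LAT1 and the SLC7A11 protein to the cell surface. Its log2 signal was 8.60, 8.34 and 8.54 with vehicle and 8.45, 8.19 and 8.40 with imatinib. The groups overlapped, with a log2 change of -0.15 ± 0.13 (SE, 95% interval -0.46 to 0.16, limma adjusted p = 0.479). Its size moved when 1 array was left out, to -0.07 without imatinib 2, -0.10 without vehicle 1 and -0.23 without vehicle 2. Slc7a5, the gene of its light chain, thus had the larger change in size, but the difference between both changes was not tested.

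Slc7a11 encodes xCT, the light chain of the cystine-glutamate exchanger that feeds glutathione synthesis. Only 1 of its 5 probes passed the detection filter, and it lay close to background with signals of 71.5, 63.4 and 77.4 with vehicle and 75.7, 58.4 and 88.3 with imatinib. Its log2 values were 5.49, 5.28 and 5.62 with vehicle and 5.78, 4.96 and 6.10 with imatinib, so the imatinib arrays spread around the vehicle arrays. The lowest value, on imatinib 2, was not above background, and the probe was detected on every other array. The log2 change was 0.15 ± 0.30 (SE, 95% interval -0.56 to 0.86, limma adjusted p = 0.77), and its sign turned without imatinib 3 (-0.09) and in both tables of the authors. Without imatinib 2 it was 0.47. The interval over all arrays holds changes of either direction, so the direction for Slc7a11 was not settled.

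The promoter window of Slc7a11, around a start that lies inside the annotated span of the gene, held 2 matches to TGATGNAA, in opposite directions, the first 66 and the second 47 bases before the start. The stretch around both, chr3:50443639-50443693 (GRCm38.p6, gene on the minus strand), is printed to set its paired matches beside the single matches of Asns and Trib3.
Slc7a11: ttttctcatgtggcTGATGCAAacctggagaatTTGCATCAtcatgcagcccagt

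Windows were listed for 8 of the 10 genes, and Slc7a5 and Slc1a5 had none in the table. The genes Atf4, Ddit3, Slc3a2, Slc7a1 and Slc38a2 held no match in these windows. Of 32851 windows of the same length, 3.97% held at least 1 match and 0.07% more than 1. Slc7a11 with 2 matches had a log2 change of 0.15, Asns with 1 had -0.32 and Trib3 with 1 had -1.10. The genes tested with none had -0.05 (Atf4), -0.03 (Ddit3), -0.15 (Slc3a2) and 0.44 (Slc38a2). Slc7a11 lay close to background and its sign turned in 4 of 18 alternatives. A tie between matches and changes was not tested.

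Slc38a2 encodes SNAT2, a sodium-coupled importer of small neutral amino acids that is known for its rise when amino acids are withdrawn. Its log2 signal was 12.16, 11.91 and 12.14 with vehicle and 12.49, 12.20 and 12.83 with imatinib. All imatinib arrays were higher than all vehicle arrays on this scale, though imatinib 2 exceeded vehicle 1 by little. Before normalization imatinib 2 (4910) lay below vehicle 1 (5051), so the groups overlapped. The log2 change was 0.44 ± 0.18 (SE, 95% interval -0.01 to 0.88, limma adjusted p = 0.194). A second detected probe of Slc38a2 gave 11.15, 11.11 and 11.23 with vehicle and 11.73, 11.47 and 11.78 with imatinib, again with the groups apart and a change of 0.50 ± 0.13. Before normalization the groups of this second probe were apart too, at 2261 to 2511 with vehicle and 2969 to 3235 with imatinib. The remaining probe was detected on 1 vehicle array only. The change was above 0 in all 18 alternatives, from 0.27 to 0.60, with the lowest without imatinib 3. It passed in 1, that with array weights, which called 7589 of all 14713 genes.

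Slc7a1, which encodes the arginine and lysine importer CAT1, and Slc1a5, which encodes the glutamine exchanger ASCT2, could not be measured. Both probes of Slc7a1 had signals of 32.5 to 43.9, and the 3 probes of Slc1a5 had signals of 32 to 50.2. No probe of either was detected on any array, so no fold is given, and expression below background was not detectable. In all, 13 of the 25 probes of the 10 genes passed the detection filter. Of those 13, 10 had a lower mean with imatinib and 5 had groups that did not overlap, 3 lower and 2 higher, a share of 38.5% beside 31.6% of all probes kept. The 3 lower ones include the dim probe of Asns that was kept through its vehicle arrays. Asns gave 3 of the 13 probes, and Atf4, Ddit3 and Slc38a2 gave 2 each, so the probes are not separate genes. By gene, 6 of 8 had a lower mean, beside 45.7% of all genes.

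**Figure D3:**
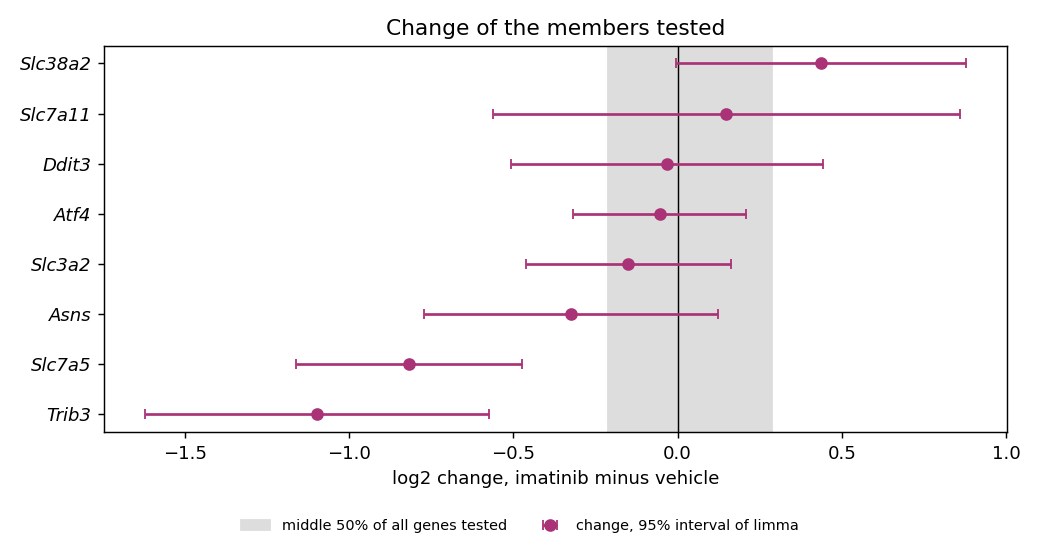
Log2 change with imatinib (horizontal axis) of the 8 genes tested (vertical axis), with limma's 95% interval for each gene alone as bars. The grey band holds the middle 50% of the changes of all 14713 genes, from -0.21 to 0.29. The intervals of Trib3 and Slc7a5 lie wholly below the band and the other 6 reach into it.

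In order of their changes, the genes ran from Trib3 and Slc7a5 through Asns, Slc3a2, Atf4, Ddit3 and Slc7a11 to Slc38a2. Neighbours in that order had overlapping intervals. With each gene centred on its own mean, the average of the 8 genes lay at 0.23, 0.03 and 0.09 on vehicle 1 to 3 and at -0.13, -0.27 and 0.05 on imatinib 1 to 3, in log2 units, so the groups overlapped. The genes whose centred log2 values over the 6 arrays came closest to this average were Haus6, Tbcd, the predicted locus LOC382117, Cap1 and Dnmt1, with root-mean-square differences of 0.03 to 0.04 log2 units.

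Of 28 further genes tested that encode ATF4's partners or are its targets, 2 fell. Mthfd2, which encodes a mitochondrial folate enzyme of one-carbon metabolism, had log2 signals of 9.35, 9.10 and 9.04 with vehicle and 8.21, 8.09 and 7.91 with imatinib. It fell 2.14-fold (log2 change -1.09 ± 0.14 SE, limma adjusted p = 0.0401). Psat1, which encodes an aminotransferase of serine synthesis, had 9.03, 8.96 and 8.76 with vehicle and 7.92, 7.82 and 8.07 with imatinib. It fell 1.98-fold (log2 change -0.98 ± 0.13 SE, limma adjusted p = 0.0406). Both sets of imatinib values lay entirely below the vehicle values. Over all genes, 1.05% passed in the lower direction and 0.523% in the higher.

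In the same list of 28 genes tested of 31, none passed in the higher direction and 26 did not pass. Of the 28, 18 had a lower mean, beside 45.7% of all genes, and 10 a higher mean, beside 54.3%. The median log2 change was -0.21 beside 0.04 over all genes. At an unadjusted limma p of 0.05 the count was 10 of 28, beside 26.4% of all genes. This list was chosen with earlier results of these data known, so its counts are not independent of them. Other enzymes of serine and one-carbon metabolism in the list, named after their values were seen, did not pass: Phgdh had a change of -0.43 and Shmt2 of -0.21 (limma adjusted p = 0.158 and 0.529). Mthfd2 and Psat1 lost their calls when vehicle 1, vehicle 3, imatinib 1 or imatinib 3 was left out (adjusted p = 0.0942 to 0.167), as did all other genes called. The transcription factor gene Atf3, another stress-induced partner of ATF4, had a log2 change of -0.37 ± 0.34 (SE), the glutathione-degrading enzyme gene Chac1 of -0.25 ± 0.17, and Sesn2, an inhibitor of mTORC1, of -0.29 ± 0.18. None of the 3 passed (limma adjusted p = 0.496, 0.38 and 0.333), and Sesn2 was detected on only 2 of the imatinib arrays. Gdf15, a secreted stress hormone chosen for mention after its values were seen, had the largest change of the list, from 7.27, 6.34 and 6.42 with vehicle to 5.08, 5.15 and 5.41 with imatinib (log2 change -1.46 ± 0.27 SE, limma adjusted p = 0.0539). Groups that did not overlap were lower for 8 genes of the list and higher for 3, beside 14.5% and 17.4% of all genes. The 3 higher ones were Cbs (log2 change 1.27 ± 0.30 SE), Stc2 (0.81 ± 0.22) and Gpt2 (0.53 ± 0.15). They did not pass either (limma adjusted p = 0.0749, 0.0954 and 0.102).

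Of 15 genes tested for the eIF2 kinases, the eIF2 and eIF2B subunits and the phosphatase arm, none passed and 1 had an unadjusted p under 0.05 (limma), beside 26.4% of all genes. In this group 5 had a lower and 10 a higher mean, and the median log2 change was 0.13. Eif2ak2, the kinase PKR, which senses double-stranded RNA and is itself induced by interferon, had the smallest p, with 11.07, 10.86 and 10.93 with vehicle and 10.07, 10.47 and 9.72 with imatinib (log2 change -0.86 ± 0.20 SE, limma adjusted p = 0.0745). Its imatinib values all lay below the vehicle values. The alpha subunit gene Eif2s1, detected on only 2 of the imatinib arrays, had a log2 change of -0.52 ± 0.24 and Eif2b5 of 0.19 ± 0.11. Eif2ak3, the kinase PERK of the endoplasmic reticulum, had a log2 change of 0.13 ± 0.14, and Ppp1r15a, which encodes the stress-induced phosphatase subunit GADD34, of 0.33 ± 0.21. Eif2ak4, the amino acid sensor GCN2, was detected on no array by either of its probes.

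Of 18 cytosolic aminoacyl-tRNA synthetase genes tested, several of them ATF4 targets, none passed and 5 had an unadjusted p under 0.05 (limma), beside 26.4% of all genes. In this group 12 had a lower mean and the median log2 change was -0.10. Their changes lay between -0.46 and 0.47. The smallest p belonged to Farsa, which was higher by 0.47 ± 0.12 (SE) on the log2 scale (limma adjusted p = 0.0879), and next came Hars with -0.41 ± 0.14 and Qars with 0.38 ± 0.15.

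Among 21 other amino acid transporter genes tested of 31, none passed and 5 had an unadjusted p under 0.05 (limma), beside 26.4% of all genes. In this group 9 had a lower mean and the median log2 change was 0.08. Slc7a4, a relative of the cationic amino acid transporters, had 7.69, 7.83 and 7.72 with vehicle and 8.94, 8.34 and 9.07 with imatinib (log2 change 1.04 ± 0.20 SE, limma adjusted p = 0.0583). The glycine transporter gene Slc6a9 had a log2 change of 1.02 ± 0.27, with 8.23, 8.88 and 8.56 with vehicle and 9.97, 9.11 and 9.66 with imatinib. For both genes all imatinib arrays lay above all vehicle arrays. Slc36a1, a lysosomal exporter, was detected on no vehicle array and on all 3 imatinib arrays. It passed the detection filter only through the imatinib arrays and is among the 5, and no size is given because its vehicle values were not above background. Of other genes for light chains that pair with CD98, Slc7a6 had a change of 0.59 ± 0.17 and Slc7a8 of -0.35 ± 0.28 (limma adjusted p = 0.1 and 0.456). Slc7a7, a further such gene named after its values were seen, had a change of 0.16 (limma adjusted p = 0.659). The glutamine importer gene Slc38a1 was detected on only 1 array and was not tested.

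**Figure D4:**
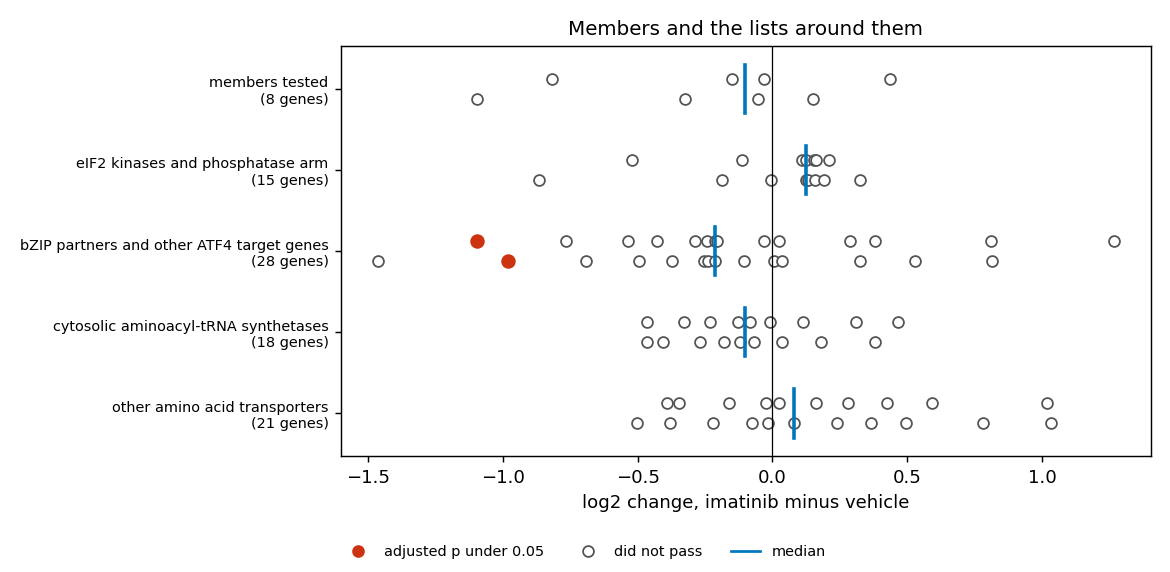
Log2 change with imatinib (horizontal axis) of each gene tested, for the genes described and the 4 lists around them (vertical axis). Filled points passed an adjusted p of 0.05, open points did not, and blue lines are medians. Only Mthfd2 and Psat1 are filled, and the medians lie between -0.21 and 0.13.

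Markers of other cells were described too, and their part in the values of Trib3, Slc7a5, Slc38a2, Mthfd2 and Psat1 was not tested. Genes passed only in the lists of dividing cells and of B and plasma cells, and none in the other lists. Over all genes 1.58% passed, 45.7% had a lower mean with imatinib and 54.3% a higher mean. All 7 markers of dividing cells tested of 8 had a lower mean with imatinib and 4 fell, with a summed linear signal of 2343 to 3288 with vehicle and 1127 to 1299 with imatinib. The 4 were Mki67, Top2a, Ccnb1 and Cdk1. All 6 T cell markers tested of 8 had a lower mean (sum 3343 to 3560 with vehicle and 1710 to 2543 with imatinib), with Cd4 and Trac undetected on all arrays. The 6 B and plasma cell markers tested of 8 had a higher mean, 2 of them called (sum 445 to 1031 and 1304 to 1636), with Pax5 undetected. The intestinal epithelium markers, 9 of 10 tested and all with a higher mean, had sums of 10990 to 54580 with vehicle and 43500 to 58260 with imatinib, with Fabp2 undetected. Of the pancreatic acinar markers 9 of 10 were detected on no array, the exception being Cela1. The 8 macrophage markers, 5 with a lower mean, had sums of 19260 to 22460 with vehicle and 15960 to 20140 with imatinib. The 6 smooth muscle markers tested of 7 all had a higher mean (sum 10510 to 24410 and 21160 to 31190), with Cnn1 undetected.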

How the data were processed

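Total RNA (200 ng) of 6 tumours was amplified, biotin-labelled and hybridised, per the labels' protocols. Per the file headers, the deposited probe table gives an intensity for each of 45281 probes, the count of beads, the bead standard error as a signal and a detection p-value, with no normalization between arrays. The deposited gene-level table and the authors' processed values are on a log2 scale and were made with Partek, according to the submitters' processing notes. Each processed column has a median of 5.53, so the centring is common to the arrays, while the distribution aimed at is not known.

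Probes were tied to the 31492 gene-level rows by arithmetic, each row being the log2 mean of 1 run of neighbouring probes, within 8e-06 (6.2e-05 for values of 10 and over). Names were updated through RefSeq (GRCm38.p6). Of the 10 genes, 5 were named by gene ID, 3 by accession and 2 by symbol. Promoter windows are RefSeq's.

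Signals were corrected by normexp from the detection p-values (offset 16, which makes folds of dim genes too small), quantile-normalized and then put on a log2 scale. A probe was kept if its detection p was below 0.05 on 3 or more of the 6 arrays (21395 probes), and each gene took its brightest kept probe (14713 genes). Groups were compared with limma 3.58.1 in R 4.3.3 without a block, and p-values adjusted by Benjamini-Hochberg over all genes, with a threshold of 0.05. The fit was tested on simulated data. The number of arrays limits the precision.

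Members and lists were chosen with earlier results of these data known. Named from each list were called genes (up to 4), or else the 3 smallest p, and some fixed genes. Alternatives covered background correction, normalization, filters, probes, tables, weights, a block and arrays left out.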

Additional observations from a re-analysis of the deposited data

How the results depend on the processing

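None of the 10 genes passed in the fit reported, beside 232 of all genes and 2 of the pathway lists. The count of the 10 was 1, always Slc7a5, without background correction, with median scaling, with a stricter detection filter, with the mean of kept probes, in the deposited gene-level table, in the authors' processed values and with a mean-variance trend, and also when each kept probe was tested separately, an alternative chosen after seeing the data. It was 2 at an adjusted p of 0.1 and 4 with array weights (whose fit stopped before convergence), and 0 to 2 with an array left out. All genes called were 0 without the detection filter, 409 with the mean of kept probes, 382 in the gene-level table, 386 in the processed values, 429 with the trend, 336 with each kept probe tested separately, 1673 at an adjusted p of 0.1 and 7589 with weights, and ranged from 0 to 1360 with an array left out. The pathway lists held 0 calls without the filter, 12 at an adjusted p of 0.1, 42 with weights and 0 to 6 with an array left out. Leaving out both vehicle 1 and imatinib 3, chosen after seeing the data, gave 0 calls of any kind. Among the alternatives that left out 1 array the counts were highest without vehicle 2, and without vehicle 1, vehicle 3, imatinib 1 or imatinib 3 they were 0; where none passed, limma gave 1841 to 5184 genes an unadjusted p under 0.05. With the replicate block 0 genes passed, 0 of the pathway lists included, and Slc7a5 had a limma adjusted p of 0.157. The deviations of same-numbered arrays correlated at -0.11, -0.31 and 0.02. With 3 arrays a group, these values cannot settle whether the numbers pair the samples. Directions turned for Atf4 (0.022) and Ddit3 (0.040) with weights, and for Slc7a11 in the gene-level table (-0.033), in the processed values (-0.022) and without both arrays (-0.082). With an array left out, Ddit3 ranged from -0.19 to 0.16, positive without vehicle 1 or imatinib 2, and Slc7a11 from -0.094 without imatinib 3 to 0.47 without imatinib 2. Trib3, Asns, Slc7a5, Slc3a2 and Slc38a2 kept theirs in all 18. The causes were not tested. Signal over background limits Slc7a11, Slc7a1 and Slc1a5.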
